A study of Arabidopsis thaliana with 5 samples.

Results

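The 51 genes described here are the AUXIN RESPONSE FACTOR (ARF) and Aux/IAA families of Arabidopsis thaliana, chosen by locus number: 22 ARF and 29 Aux/IAA genes, out of 27444 protein-coding genes on the 5 nuclear chromosomes. A gene is called near a region where a deposited region of the factor BLUEJAY (BLJ) or JACKDAW (JKD) shares 1 bp or more with it or with its flanks of 1000 bp. The rule that chose the members uses no measured value. All 51 were found in the gene table.

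The regions come from chromatin immunoprecipitation and sequencing of whole roots of Columbia plants grown without added supplements. The BLJ group has 2 libraries from plants that carry BLJ fused to yellow fluorescent protein in the ground tissue, the layers of cortex and endodermis. The JKD group has 2 libraries from plants that carry the JKD fusion in the ground tissue and in the quiescent centre, the organizer of the root stem cells. A single wild-type library without a fusion went through the same protocol with the same antibody, and no regions of its own were analysed here. Which promoter drives each fusion is not given in the sources used here, and because whole roots were extracted, regions cannot be assigned to a cell layer. Each factor has 1 list made from both replicates, with 24229 BLJ and 21985 JKD regions of a median width of 1015 and 906 bp. A region carries 2 density values, whose assignment to the replicates is not stated. It also carries an irreproducible discovery rate (IDR), a measure of reproducibility between the replicates. A low IDR does not mean that both density values rank a region alike. Read depth is unknown, so intervals below cover counting error only, and density was compared within a list only, as a percentile among that list's regions of the mean log2 of both values. Across all regions the first-listed and second-listed values had a Spearman correlation of 0.25 for BLJ and 0.41 for JKD.

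ARF proteins bind auxin response elements in DNA and activate or repress the genes beside them. Aux/IAA proteins bind ARFs and recruit TOPLESS co-repressors, which keeps those genes silent. Auxin joins an Aux/IAA protein to an F-box receptor of the TIR1/AFB family, the Aux/IAA protein is degraded through its degron, and the ARF is released. In roots, ARF5 with its partner IAA12 sets up the embryonic root, ARF7 and ARF19 with IAA14 start lateral roots, ARF10 and ARF16 act in the root cap, and IAA3 limits the size of the meristem. BLJ and JKD are zinc finger proteins that help to specify the ground tissue.

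Most members lay near a region of both factors, as did most genes of the genome. Regions of each factor were found for 34 of the 51 members, BLJ alone for 2, JKD alone for 6 and neither for 9. Over the whole set of coding genes these shares were 71.2%, 9.57%, 5.6% and 13.6%, against 66.7%, 3.92%, 11.8% and 17.6% of the members. BLJ regions were near 16 of 22 ARF genes (72.7%, 95% Wilson interval 51.8 to 86.8) and 20 of 29 Aux/IAA genes (69.0%, 50.8 to 82.7), where 80.8% of all genes were near one. JKD regions were near 17 of 22 ARF genes (77.3%, 56.6 to 89.9) and 23 of 29 Aux/IAA genes (79.3%, 61.6 to 90.2), where 76.8% of all genes were near one. The intervals of the families overlap widely for both factors, and each of these 4 intervals holds the share of all genes. No test was run over the members, because genes are not replicates and each factor has a single list.

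**Figure D1:**
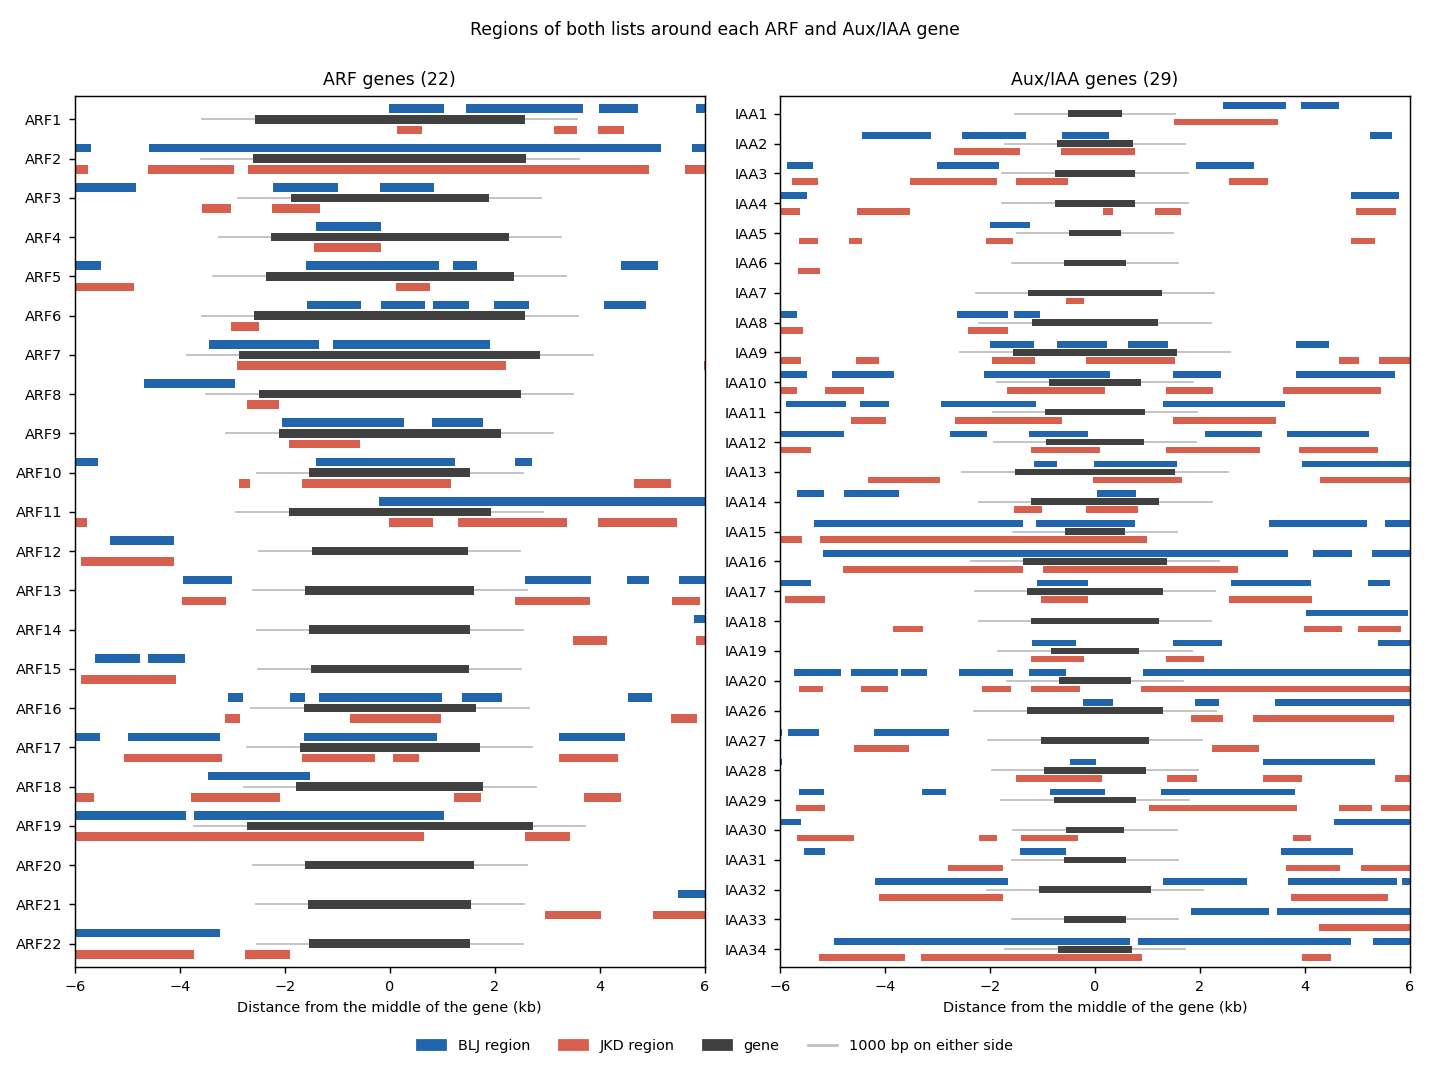
Regions of both lists around each of the 22 ARF and 29 Aux/IAA genes, drawn to scale by distance from the middle of the gene in kb. Blue bars are BLJ regions, red bars JKD regions, dark bars genes and thin grey lines the 1000 bp on either side. ARF12, ARF14, ARF15, ARF20, ARF21, IAA6, IAA18, IAA27 and IAA33 have no bar within the grey lines.

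Longer genes were more often near a region. ARF genes were long, with a median of 3670 bp and a range of 2973 to 5735 bp, and Aux/IAA genes were shorter, with a median of 1740 bp and a range of 986 to 3137 bp. In the shortest decile of coding genes the share was 54.9% for BLJ and 51.7% for JKD. In the longest decile these shares were 91.2% and 88.1%. Genes in the same length deciles as the ARF members were near a BLJ region in 89.9% and near a JKD region in 86.4% of cases, above the 72.7% and 77.3% of the ARF members. For the Aux/IAA members the like-length shares were 80.9% and 76.8%, against 69.0% and 79.3% found. The share found minus the like-length share was -17.2 percentage points for ARF and -12.0 for Aux/IAA genes with BLJ. With JKD it was -9.11 for ARF and 2.52 for Aux/IAA genes, and the latter turned to -2.60 when only overlap with the gene itself counted (62.1% found). The shortfall of the ARF genes turned to the opposite side without 7 genes clustered on chromosome 1, where 100% were found against like-length shares of 90.5% for BLJ and 87.1% for JKD.

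**Figure D2:**
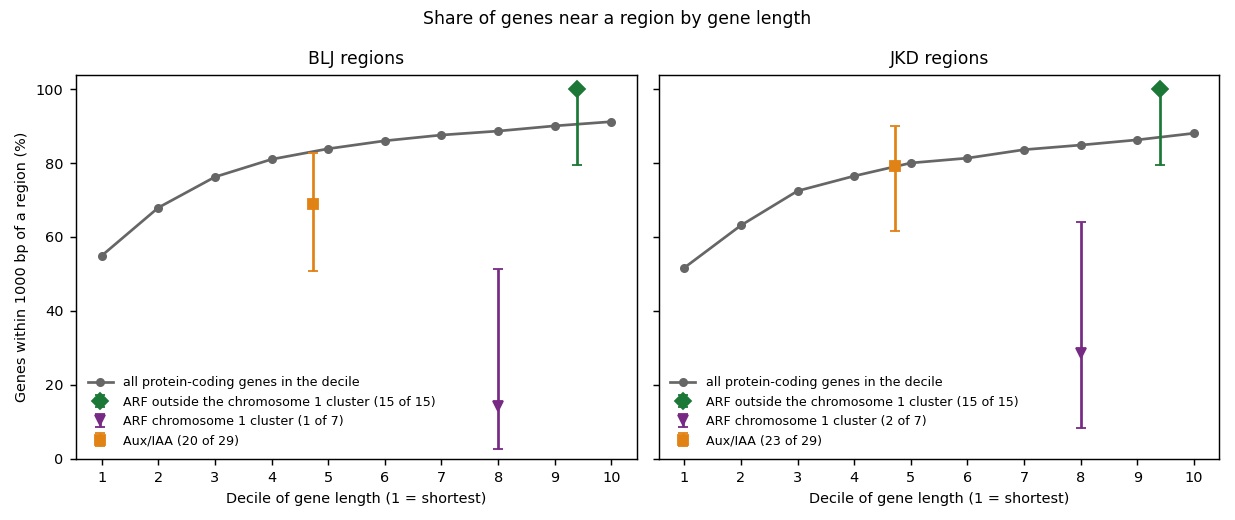
Share of genes within 1000 bp of a BLJ region (left) or JKD region (right), in percent, by decile of gene length. The grey line is all protein-coding genes, coloured points are the ARF genes outside the chromosome 1 cluster, the 7 ARF genes of that cluster and the Aux/IAA genes, each at the mean decile of its genes with a 95% Wilson interval. The ARF genes outside the cluster lie at 100% and those of the cluster at 14.3% and 28.6%.

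In the full lists the ARF family fell into a group near regions and a group with almost none, divided by position in the genome. All 15 ARF genes outside the cluster on chromosome 1 lay near a region of both factors (Wilson interval 79.6 to 100 for each, which holds the like-length shares of 90.5% for BLJ and 87.1% for JKD). A region overlapped the gene itself in 14 of 15 for BLJ and 15 of 15 for JKD, where 71% and 65.3% of all coding genes, and 85.1% and 79.3% of genes of like length, were overlapped by one. ARF8 was the exception, with a BLJ region 453 bp away. Of the 7 ARF genes in the cluster, ARF12, ARF13, ARF14, ARF15, ARF20, ARF21 and ARF22, BLJ regions were near 1 (14.3%, Wilson interval 2.57 to 51.3) and JKD regions near 2 (28.6%, 8.22 to 64.1). No region of either list overlapped any of these 7 genes. The split was narrower in shorter lists. At an IDR at or below 0.1, BLJ regions were near 5 of the 15 and 1 of the 7, and JKD regions near 7 of the 15 and 1 of the 7. Of all coding genes, 32.1% (BLJ) and 40.8% (JKD) had one at this limit. The 15 genes thus stood close to the background there, and like-length shares were not computed for it.

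The cluster holds close copies of each other over 668 kb of chromosome 1. In the same stretch lie 110 other protein-coding genes, 42 genes annotated as pseudogenes and 16 as transcribed pseudogenes. ARF13 (AT1G34170) had a BLJ region at chr1:12447724-12448988, which began 960 bp from the gene and overlapped NAC016, with densities of 2.49 and 1.58, a percentile of 96.9 and an IDR of 0.0217. Its JKD region (chr1:12447544-12448978) began 780 bp from the gene, with densities of 1.30 and 1.30, a percentile of 57.6 and an IDR of 0.274. ARF22 (AT1G34390) had a JKD region 365 bp away (chr1:12554777-12555640, densities 1.13 and 1.70), and its closest BLJ region was 1700 bp away. The closest regions of ARF13 thus lay in a flank and not on the gene. For ARF12 (AT1G34310), ARF21 (AT1G34410), ARF20 (AT1G35240), ARF15 (AT1G35520) and ARF14 (AT1G35540) the closest BLJ regions were 2631, 3952, 4824, 2395 and 4265 bp away. The closest JKD regions of the same genes were 2624, 1401, 5099, 2568 and 1963 bp away.

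Regions were also sparse around the cluster genes. The stretch from ARF13 to ARF14 held 65 BLJ regions, or 9.73 per 100 kb against 20.5 over chromosome 1, and 58 JKD regions, or 8.68 per 100 kb against 18.4. BLJ regions covered 10.7% of it (26.6% of chromosome 1) and JKD regions 9.43% (22.3%). For each factor, 51 of the 110 other coding genes in the stretch were near a region (46.4%, Wilson interval 37.3 to 55.6). In the 1000000 bp on either side the counts were 172 of 288 coding genes for BLJ (59.7%) and 153 of 288 for JKD (53.1%). Over chromosome 1 the shares of coding genes near a region were 80.3% and 76.0%. Among the flanking genes of the same length decile as the ARF genes the counts were 20 of 25 for BLJ (80.0%, Wilson interval 60.9 to 91.1) and 17 of 25 for JKD (68.0%, 48.4 to 82.8), while only 4 other genes of that length lay in the stretch itself, 3 of them near a region of each factor. The regions that the stretch did hold had a median density percentile of 61.6 for BLJ and 55.7 for JKD. How reads with several matching places were treated is not given in the sources used here, and the part of read placement among the close copies was not tested.

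**Figure D3:**
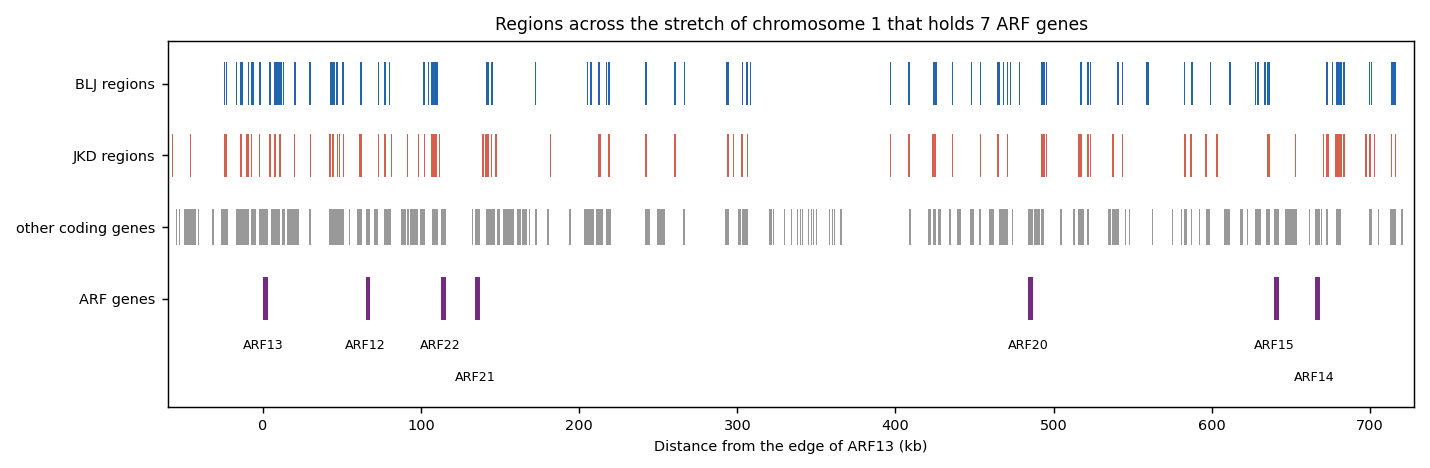
Regions across the stretch of chromosome 1 that holds 7 ARF genes, by distance in kb from the outer edge of ARF13. Rows show BLJ regions, JKD regions, other protein-coding genes and the ARF genes. No region overlaps any of the 7 ARF genes, while regions occur between them.

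Among the 5 ARF genes known as activators, ARF5, ARF6, ARF7, ARF8 and ARF19, the lateral root factors ARF7 and ARF19 carried the highest JKD densities. ARF19 (AT1G19220) was overlapped by a JKD region of 12813 bp at chr1:6618254-6631066 with densities of 1.31 and 2.83, a percentile of 99.5 and an IDR of 0.00474. A BLJ region of 4770 bp (chr1:6626675-6631444, densities 1.62 and 1.95) covered 69.0% of ARF19, also touched AT1G19210 and had a percentile of 90.5. The wide JKD region covered 62.1% of ARF19 and also touched 5 other coding genes, JAZ1 among them, so its density does not belong to ARF19 alone. ARF7 (AT5G20730, NPH4) had a JKD region at chr5:7016398-7021526 with densities of 1.10 and 2.60 and a percentile of 98.0. Its values disagreed, since the first-listed value stood at percentile 51.4 and the second-listed at 99.2, and its IDR was 0.228. The BLJ region inside ARF7 (chr5:7018227-7021218, densities 1.70 and 1.46, percentile 67.5) had an IDR of 0.0465, the lowest of any BLJ region near an ARF gene outside the cluster.

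ARF5, ARF6 and ARF8 had lower percentiles. At ARF5 (AT1G19850, MONOPTEROS) a BLJ region inside the gene had densities of 1.76 and 1.33 at chr1:6887436-6889982, a percentile of 58.6. The JKD region there (chr1:6889164-6889806, densities 1.10 and 1.35) had a percentile of 28.05 and an IDR of 0.292. ARF6 (AT1G30330), which acts with ARF8 in flower and adventitious root development, had 4 BLJ regions, more than any other member, yet the best of them stood at percentile 35.2. ARF6 had 1 JKD region, at percentile 59.96, and ARF8 (AT5G37020) had percentiles of 59.6 for BLJ and 76.0 for JKD. The best regions of the factors did not overlap each other at ARF6 or ARF8.

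The other ARF genes outside the cluster are mostly known as repressors, or their activity is less clear. ARF18 (AT3G61830) had high values in both lists, in regions that touched AT3G61826 and AT3G61829. A BLJ region across its edge (chr3:22886201-22888149) had densities of 1.68 and 2.31, a percentile of 96.7 and an IDR of 0.0527. A JKD region 317 bp from the gene (chr3:22885891-22887572) had densities of 1.38 and 2.13, a percentile of 98.3 and an IDR of 0.00183. Both values of that JKD region ranked high, at percentiles 98.0 and 97.1. The BLJ region covered 7.32% of ARF18, and the only JKD region on the gene itself had a percentile of 3.91. ARF10 (AT2G28350), a target of miR160 that acts in the root cap, had regions over most of the gene, with percentiles of 89.8 for BLJ (chr2:12114012-12116661, densities 1.89 and 1.65) and 85.9 for JKD (chr2:12113758-12116586, densities 1.21 and 1.70, IDR 0.0375). Its partner ARF16 (AT4G30080) stood lower, at 35.4 and 56.6, and ARF17 (AT1G77850), also a target of miR160, at 29.7 and 47.7.

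ARF2 (AT5G62000), a repressor of growth, lay whole inside a BLJ region of 9775 bp (chr5:24908196-24917970, densities 1.57 and 1.79, percentile 82.0). A JKD region of 7641 bp also spanned it (chr5:24910086-24917726, densities 1.17 and 1.73, percentile 84.4, IDR 0.0391), and both regions reached HSFB2A. ARF11 (AT2G46530) had percentiles of 58.0 for BLJ, in a region of 8026 bp, and 90.3 for JKD (chr2:19107866-19109939, densities 1.43 and 1.53). ARF3 (AT2G33860, ETTIN) and ARF4 (AT5G60450), which act with each other in organ polarity and are targets of small RNAs from TAS3, had the lowest JKD percentiles of the family, 22.0 and 27.0, beside that of ARF5. Their BLJ percentiles were 48.7 and 59.8. ARF1 (AT1G59750) had percentiles of 66.4 and 61.0 and ARF9 (AT4G23980) of 63.1 and 52.2, BLJ and JKD in that order.

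**Figure D4:**
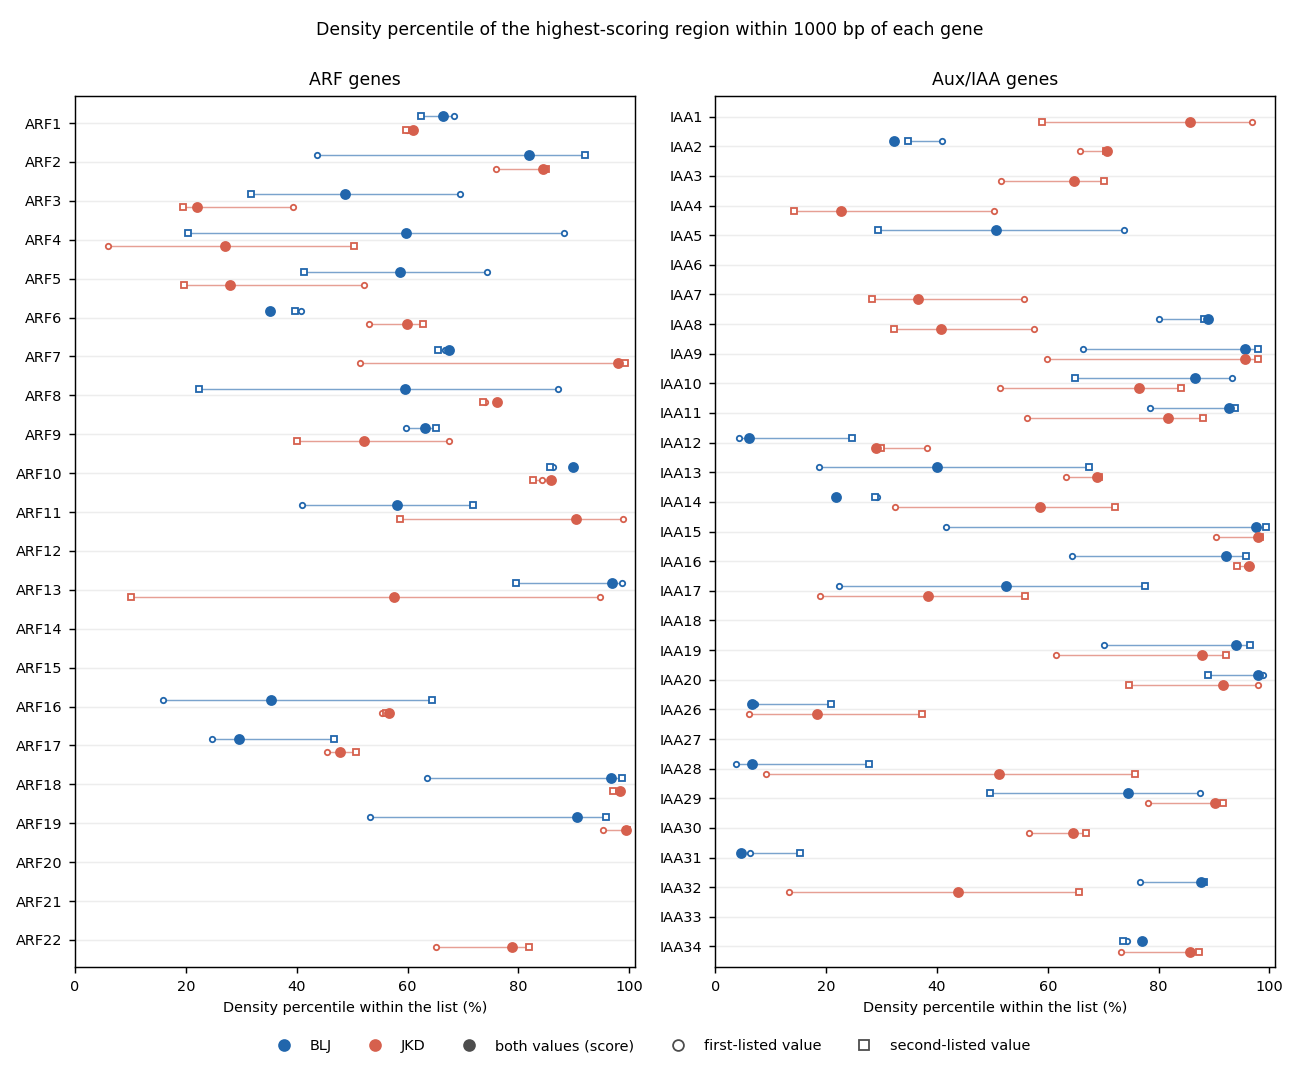
Density percentile within its list, in percent, of the highest-scoring region within 1000 bp of each ARF gene (left) and Aux/IAA gene (right), blue for BLJ and red for JKD. Filled points use both density values, open circles the first-listed and open squares the second-listed value, and genes without a region have no point. ARF19 and ARF18 lead the ARF genes for JKD at 99.5 and 98.3, and the gap between both values reaches 84.6 percentile points at the JKD region of ARF13.

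The Aux/IAA genes spanned nearly the whole range of densities. IAA15 (AT1G80390) had high values for both factors, with a JKD region that spanned the gene (chr1:30216951-30223190, 6240 bp, densities 1.25 and 2.28, percentile 97.9, IDR 0.00612). Its best BLJ region (chr1:30216840-30220823, densities 1.56 and 2.64, percentile 97.5) began 806 bp from the gene and overlapped the cyclin gene CYCA2;4. IAA9 (AT5G65670) had regions of nearly the same extent across 1 gene edge, at chr5:26252982-26253814 for BLJ (densities 1.70 and 2.15, percentile 95.6, IDR 0.0353) and at chr5:26253013-26253841 for JKD (densities 1.12 and 2.23, percentile 95.6, IDR 0.0867). Neither of these touched another coding gene. IAA9 was the only Aux/IAA gene near a BLJ region with an IDR at or below 0.05.

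IAA16 (AT3G04730) lay whole inside a BLJ region of 8866 bp (chr3:1284331-1293196, densities 1.68 and 1.95, percentile 92.1), which also held parts of PR4 and RALFL21. Its best JKD region (chr3:1284714-1288149, densities 1.32 and 1.94, percentile 96.3, IDR 0.00655) overlapped PR4 and ended 6 bp from IAA16. IAA19 (AT3G15540), a partner of ARF7 in the bending of shoots, had its best regions beside the gene, 636 bp away for BLJ (densities 1.72 and 2.00, percentile 94.0) and 514 bp away for JKD (densities 1.12 and 1.88, percentile 87.8). IAA11 (AT4G28640) had percentiles of 92.7 for BLJ, in a region 166 bp away, and 81.7 for JKD. IAA29 (AT4G32280) had percentiles of 74.5 and 90.2, the latter in a JKD region with an IDR of 0.0158 that lay 241 bp away. The best regions of IAA15, IAA19, IAA11 and IAA29 thus included one beside the gene for at least 1 factor.

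Best regions below percentile 25 were found for 5 of the 20 Aux/IAA genes near a BLJ region (IAA12, IAA14, IAA26, IAA28 and IAA31) and for none of 16 ARF genes, where 9.81% of all genes near a region had one. For JKD they were found for 2 of 23 Aux/IAA genes (IAA4 and IAA26) and 1 of 17 ARF genes (ARF3), where 11.5% of all genes had one. IAA12 (AT1G04550), the partner of ARF5 in the embryonic root, had a BLJ percentile of 6.15 (densities 1.32 and 1.26) and a JKD percentile of 28.9. For IAA28 (AT5G25890), a repressor of lateral root formation, the values were 6.62 (densities 1.31 and 1.27) and 51.2. IAA26 (AT3G16500, PAP1) stood at 6.67 and 18.4. IAA14 (AT4G14550), the repressor of ARF7 and ARF19 in lateral root founder cells, had percentiles of 21.8 for BLJ (chr4:8349088-8349830, densities 1.49 and 1.27) and 58.7 for JKD (chr4:8348878-8349871, densities 1.06 and 1.61), in regions inside the gene. IAA17 (AT1G04250, AXR3) stood higher for BLJ, at 52.5, with 38.4 for JKD.

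Near BLJ alone lay 3.92% of the members and near JKD alone 11.8%, against 9.57% and 5.6% of all coding genes. JKD regions alone were near IAA3 (AT1G04240, SHY2, percentile 64.7), IAA1 (AT4G14560, 85.7), IAA4 (AT5G43700, 22.7), IAA7 (AT3G23050, 36.6), IAA30 (AT3G62100, 64.5) and ARF22 (78.8). For IAA3 the JKD region (chr1:1127408-1128404, densities 1.10 and 1.60) crossed a gene edge, and the closest BLJ region was 1060 bp away, just outside the window. At IAA1 the JKD region began 980 bp from the gene and a BLJ region of percentile 97.2 lay 1928 bp away. BLJ regions alone were near IAA5 (AT1G15580, percentile 50.7) and IAA31 (AT3G17600, percentile 4.67, the lowest BLJ value of any member), with JKD regions 1073 and 1166 bp away. With 2000 bp on either side, 1 member was near BLJ alone, 5 near JKD alone and 5 near neither. The same counts over all genes were not computed at 2000 bp.

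Outside the ARF cluster, 4 members lay near no region. Of all 51 members 17.6% lay near neither factor, against 13.6% of all coding genes. IAA6 (AT1G52830) was farthest from BLJ regions, at 11646 bp, and 4650 bp from a JKD region. IAA18 (AT1G51950), which acts in embryonic root and lateral root formation, was 2804 and 2059 bp away, IAA27 (AT4G29080, PAP2) 1745 and 1198 bp, and IAA33 (AT5G57420) 1239 and 3679 bp, BLJ and JKD in that order. A part of these absences therefore depends on the width of the window.

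The 6 Aux/IAA genes with no degron or a changed one, whose proteins are not degraded in the usual way, are IAA20, IAA30, IAA31, IAA32, IAA33 and IAA34. Each factor had regions near 4 of these 6, against 16 of the 23 with the usual degron for BLJ and 19 of 23 for JKD. Over all genes the shares were 80.8% and 76.8%. The 6 genes were shorter, with a median of 1268.5 against 1907 bp, and like-length shares were 76.5% for BLJ and 72.4% for JKD for the 6, and 82.1% and 77.9% for the 23. IAA20 (AT2G46990) had the highest BLJ percentile of any member, 97.9, in a region 891 bp from the gene (chr2:19305794-19306823, densities 2.49 and 1.71), and a JKD percentile of 91.5 at 926 bp (chr2:19306229-19306788, densities 1.38 and 1.63, IDR 0.0174). IAA34 (AT1G15050) lay whole inside a JKD region of 4210 bp (percentile 85.7, IDR 0.0293) and had a best BLJ percentile of 77.0. IAA32 (AT2G01200) had 87.6 and 43.7. A group of 6 genes allows wide intervals (30.0 to 90.3% for 4 of 6).

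Most BLJ regions at ARF genes lay inside the gene, and regions at Aux/IAA genes lay more often in a flank. Of 27 pairs of an ARF gene and a BLJ region, 14 regions lay inside the gene (51.9%) and 3 in a flank (11.1%). Of 35 pairs with an Aux/IAA gene, 8 lay inside (22.9%) and 15 in a flank (42.9%). Genes of the same lengths had inside shares of 41.6% and 19.8% and flank shares of 24.3% and 35.6%, which are in the same order. The JKD inside shares were 39.1% for ARF and 14.3% for Aux/IAA genes, against 39.1% and 19.4% at like length. For JKD the flank shares were 5 of 23 (21.7%) and 15 of 35 (42.9%), with 24.95% and 35.9% at like length. In the BLJ list the flank regions of Aux/IAA genes were denser than those on the genes, with median percentiles of 77.0 over 15 and 35.7 over 20. In the JKD list the order was opposite, 47.4 and 61.6. Over all coding genes the BLJ medians were 49.6 in flanks and 51.9 on genes, and the JKD medians 49.9 and 53.0. Regions of 4000 bp or wider were near 6 of the 51 members (11.8%) in each list, where 6.55% of all genes were near such a BLJ region and 6.5% near such a JKD region. The gene table gives no strand, so a flank before a gene and one behind it cannot be told apart here.

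The medians of the best density percentile lay within 10 points of that of all genes near a region. For BLJ it was 61.4 over 16 ARF genes and 75.8 over 20 Aux/IAA genes, where all genes near a region had 68.5. For JKD it was 61.0 over 17 ARF genes and 68.8 over 23 Aux/IAA genes, where all genes had 67.4. At like length, as the mean of the decile medians, the BLJ values were 71.2 for ARF and 67.6 for Aux/IAA genes. The JKD values at like length were 69.6 and 66.7, so the ARF medians stood below theirs in both lists. Best regions at or above percentile 90 were found for 3 of 16 ARF and 6 of 20 Aux/IAA genes near a BLJ region, where 17% of all genes near a region had one, and for 4 of 17 and 5 of 23 near a JKD region, where 17.1% had one. When only regions that overlapped the gene counted, the BLJ median of the Aux/IAA genes was 49.1 over 17 genes (all genes 62.4).

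Regions with a low IDR were few at members. A BLJ region at an IDR at or below 0.05 was near ARF7, ARF13 and IAA9, 3 of 51 members (5.88%), where 11.2% of all genes had one. A JKD region at that limit was near 9 of 51 members (17.6%), where 22.2% of all genes had one: ARF2, ARF10, ARF18, ARF19, IAA15, IAA16, IAA20, IAA29 and IAA34. No member was in both groups, and 3.78% of all genes were. The limit does not select alike in both lists, since 8.21% of BLJ regions and 17.7% of JKD regions passed it. At a limit of 0.1, BLJ regions were near 6 of 22 ARF and 7 of 29 Aux/IAA genes, where 32.1% of all genes had one, and JKD regions near 8 of 22 and 11 of 29, where 40.8% had one.

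The best regions of both factors overlapped each other at most members that had both. At the 34 members near both, the best BLJ and best JKD region did so in 26 (76.5%), 12 of 16 ARF and 14 of 18 Aux/IAA genes. Over all coding genes near both factors 70.4% did so, and over genes of like length 67.4%, so the members' count stands near the background. Of the distinct BLJ regions near ARF genes 16 of 27 (59.3%) overlapped any JKD region, and near Aux/IAA genes 29 of 35 (82.9%), against 68.7% of all BLJ regions. Of JKD regions the shares were 18 of 23 (78.3%) and 28 of 35 (80.0%), against 77.1% of the list. The Spearman correlation of best percentiles over the 34 members was 0.63, a description of genes that share libraries, sequence and gene length between the axes. Best percentiles of at least 90 in both lists were reached by 6 of the 34, ARF18, ARF19, IAA9, IAA15, IAA16 and IAA20. The share of all genes that reached this in both lists was not computed, so it cannot be read as particular to the members.

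**Figure D5:**
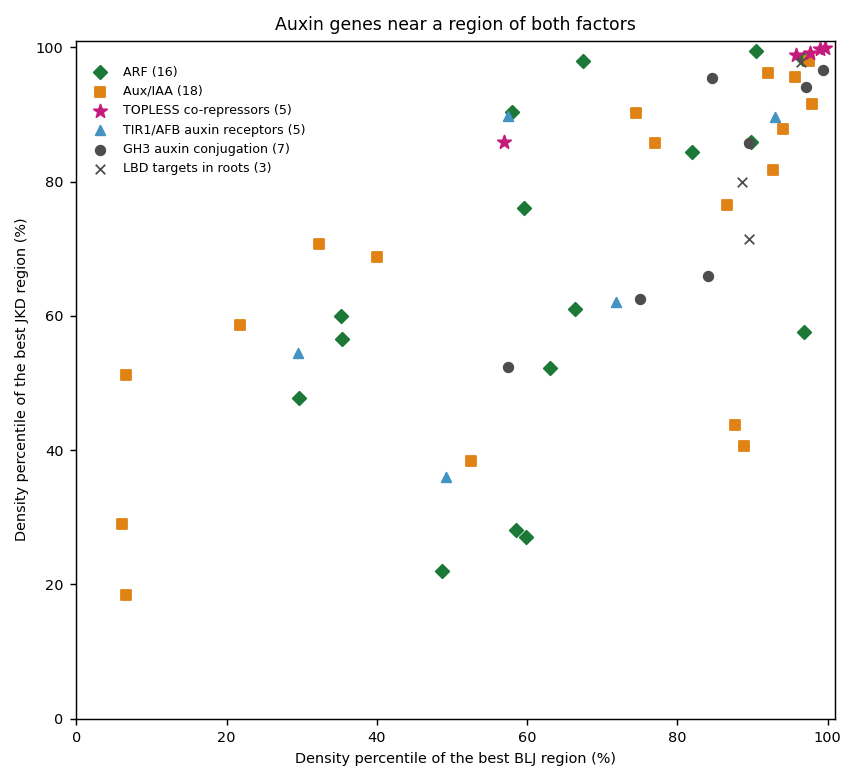
Density percentile of the best BLJ region (horizontal axis, percent) and the best JKD region (vertical axis, percent) for auxin genes near a region of both factors. Green diamonds are ARF genes, orange squares Aux/IAA genes, pink stars TOPLESS co-repressors, blue triangles TIR1/AFB receptors, grey circles GH3 genes and crosses LBD genes. Of the 5 TOPLESS genes, 4 lie above percentile 95 on both axes.

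Other parts of auxin response were measured in the same way. TOPLESS (TPL) and its relatives TPR1 to TPR4, the co-repressors that Aux/IAA proteins recruit, all 5 lay near regions of both factors, as did 71.2% of all coding genes. Their median percentiles were 97.6 for BLJ and 99.2 for JKD, where all genes near a region had 68.5 and 67.4. TPR1 led with densities of 2.07 and 3.196 for BLJ (chr1:30267002-30267970, percentile 99.7, IDR 0.0393) and 1.82 and 2.97 for JKD (chr1:30266904-30267993, percentile 99.9, IDR 0.000532). TPR2 had percentiles of 99.0 and 99.7, TPL of 97.6 and 99.2, and TPR3 of 95.8 and 98.9, while TPR4 stood at 57.0 and 86.0.

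The TIR1/AFB receptors stood lower. BLJ regions were near all 6 and JKD regions near 5, where 80.8% and 76.8% of all genes were near one. Their median percentiles of 53.3 and 62.1 were below the 68.5 and 67.4 of all genes near a region. TIR1 had 57.4 and 89.8, AFB4 93.0 and 89.6, AFB5 71.9 and 62.1, and AFB1 had no JKD region. GH3 genes, which encode enzymes that join auxin to amino acids and respond to auxin, were near regions of both factors in 7 of 7 cases (71.2% of all genes), with medians of 84.6 and 85.7 (68.5 and 67.4 over all genes near a region). GH3.4 had the highest, 99.3 and 96.7, followed for BLJ by GH3.2 at 97.2 and GH3.5 at 89.6. Of the LBD genes that act below ARF7 and ARF19 in lateral root formation, LBD16, LBD18 and LBD33 had BLJ percentiles of 96.4, 89.5 and 88.6 and JKD percentiles of 97.9, 71.4 and 80.0, and LBD29 had no region of either factor.

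Most genes of small RNAs that act on ARF transcripts were near no region. The 9 genes of miR160, miR167 and miR390 included 1 near BLJ and 3 near JKD, where 40.8% and 39.9% of 326 miRNA genes did so. MIR160A, whose product cuts transcripts of ARF10, ARF16 and ARF17, had a JKD region at chr2:16338920-16340296 with densities of 1.25 and 2.01, a percentile of 95.7 and an IDR of 0.00609. Its BLJ region had a percentile of 15.3. MIR167C and MIR390B had JKD regions at percentiles 20.5 and 28.8. None of the 3 TAS3 loci, whose small RNAs act on ARF2, ARF3 and ARF4, lay near a region, and neither did MIR160B, MIR160C, MIR167A, MIR167B, MIR167D or MIR390A.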

How the data were processed

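For BLJ and for JKD the authors deposited a single region table covering both replicates. CASAVA and Bowtie were used with genome build TAIR9, per the submitters' processing notes, which name no versions. Not given in the sources used here: region caller, normalization, use of the wild-type library. Regions carry a start, an end, 2 density signal values and, per the file headers, an IDR, a rate between 0 and 1 treated as a q-value. Printed coordinates are TAIR9 region coordinates, counted from 1. The deposited run sheets place the replicates of each factor on different flow cells, and since the order of the density values is unknown, no value could be tied to one.

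Genes were placed and named with NCBI's RefSeq table (assembly TAIR10.1), which lacks strand, exons and sequence. As a check that positions match, region cover rose most steeply within 100 bp of gene edges in each list and chromosome, with offsets up to 3000 bp tried. Promoter, protein and small RNA sequences were not used here. Score was the mean log2 of both density values, and like-length shares are means over members of the share in their decile of gene length. Wilson intervals are at 95%. No test was run. The overlap code was tested on simulated data. Members, gene lists and classes were chosen with earlier results of these data known. Named with values were members near 1 factor or none, the cluster, the highest 5 and lowest 3 of each family and factor, members of low IDR, and the highest 3 of each further list, together with other members needed to cover a family's known root genes, which were chosen after their values were seen. Alternatives changed the window, the IDR limit, density, overlap and length matching. Tools were matplotlib 3.10.9, scipy 1.17.1, numpy 2.4.6 and pandas 2.3.3 under Python 3.11.15.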

Additional observations from a re-analysis of the deposited data

How the results depend on the processing

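Of the alternative values computed, 49 stayed within a set limit of the value reported, 48 moved beyond it and 1 changed sign. For shares and their differences the limit was the Wilson interval, and for counts it was a fixed ratio. For medians it was the spread between the medians found with 1 density value left out, which those 2 medians themselves define. Stricter IDR limits shorten the lists. At an IDR at or below 0.1 the share of genes near BLJ was 27.3% (ARF) and 24.1% (Aux/IAA), where 32.1% of all coding genes were. Near JKD it was 36.4% and 37.9% (all coding genes 40.8%). At 0.05 the shares were 9.09% and 3.45% for BLJ (all coding genes 11.2%), and 18.2% and 17.2% for JKD (22.2%). With the denser 50% of each list the Aux/IAA shares were 44.8% for BLJ (all coding genes 57.7%) and 55.2% for JKD (53.3%). With 2000 bp on either side the BLJ share of Aux/IAA genes was 82.8%, where that of all coding genes was 86.6%. Without the chromosome 1 cluster both ARF shares were 100% in the full lists. At an IDR at or below 0.1, BLJ was near 5 and JKD near 7 of these 15 genes. At 0.05 the counts were 1 and 4, beside 1 and 0 of the 7 cluster genes. With the denser 50% of each list both factors were near 11 of the 15. Without regions of 4000 bp or wider BLJ was near 12 and JKD near 14, where 77.6% and 73.4% of all coding genes were near one. The Aux/IAA share for JKD minus that at like length was -2.60 percentage points with no flank. Members near BLJ alone and near neither numbered 4 and 14 with no flank, and 1 and 5 with 2000 bp. At an IDR at or below 0.1, 8 were near BLJ alone, 14 near JKD alone, 24 near neither and 5 near both. Cluster genes near BLJ and JKD numbered 0 and 0 with no flank and 2 and 4 with 2000 bp, and 1 was near JKD at an IDR at or below 0.1. The ARF median percentile for BLJ was 42.5 with the lower of both percentiles, 67.5 with 2000 bp, 59.8 without regions of 4000 bp or wider or without the cluster, and 51.5 at an IDR at or below 0.1. The Aux/IAA median for BLJ under the same settings was 50.6, 85.4, 63.5 (wide regions) and 80.4, and 49.1 with no flank, so its place above the median of all genes depends on flank regions. For JKD the ARF median was 55.4, 73.9 (2000 bp) and 85.1 (IDR), and 56.6 with no flank; the Aux/IAA median was 56.2 with the lower percentile and 87.8 by IDR. Leaving out 1 density value at a time gave 64.8 to 65.2 (ARF) and 65.3 to 70.4 (Aux/IAA) for BLJ, and 59.6 to 65.1 and 56.6 to 70.5 for JKD. Why the medians moved was not tested. Read depth is unknown and limits every share. No paired analysis was possible because each factor has 1 list made from both replicates, with density values in an unstated order, so no result comes from a test over samples.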

Other observations

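At several members the densest region near the gene lay on another gene, which was seen in the values and not chosen beforehand. The best BLJ regions of IAA5 and IAA15 overlapped the A-type cyclin genes CYCA2;3 and CYCA2;4, and that of IAA15 also touched AT1G80380. The wide JKD region at ARF19 reached JAZ1, a repressor of jasmonate response. The regions of IAA10 best placed for both factors lay on SDD1, a protease gene of stomatal patterning, at percentiles 86.6 for BLJ and 76.5 for JKD. Regions beside IAA20 also touched ABCB4, an auxin transporter gene, but they were not the densest near IAA20. The BLJ region there was 5831 bp wide, with densities of 1.42 and 1.72 and a percentile of 65.4. The JKD region was 6296 bp wide, with densities of 1.09 and 1.70, a percentile of 74.4 and an IDR of 0.0334. The best regions of IAA20, at percentiles 97.9 for BLJ and 91.5 for JKD, touched no coding gene.

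Neighbours occur within the family, where 3 pairs of Aux/IAA genes lie next to each other with no coding gene between them. The gap is 6388 bp for IAA3 and IAA17, 10732 bp for IAA14 and IAA1, and 12510 bp for IAA2 and IAA7. No region of either list was near both genes of a pair, at median region widths of 1015 bp for BLJ and 906 bp for JKD, well below these gaps. In each pair 1 gene had regions of both factors (IAA17, IAA14 and IAA2) and the other a JKD region alone (IAA3, IAA1 and IAA7). Over all coding genes 71.2% were near both factors and 5.6% near JKD alone. The pattern was seen afterwards and depends on the window. A BLJ region lay 1060 bp from IAA3 and another 1928 bp from IAA1, whose JKD region lay 980 bp away.

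The values of the replicates often ranked a member's best region differently. The gap between the percentiles of the first-listed and second-listed value had a median of 25.2 percentile points over 36 members for BLJ and 21.5 over 40 for JKD, and it was over 40 points at 9 and 6 of them. The same gap was not computed over all genes. Across all regions both values had a Spearman correlation of only 0.25 for BLJ and 0.41 for JKD, so these gaps cannot be read as particular to the members.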
